A study of Mus musculus with 2 samples.

Results

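Type 1 conventional dendritic cells (cDC1) of the mouse liver were selected on their transcripts: of 13603 kept cells, 195 met the rule, 134 in the normal library and 61 in the fibrosis library. A kept cell had under 10% of its unique molecular identifiers (UMIs, one per captured RNA molecule) in mitochondrial genes and over 200 detected genes. A cDC1 was then a cell with a sum of at least 2 UMIs of Xcr1 and Clec9a, at least 30 UMIs per 10000 of the MHC class II genes H2-Aa, H2-Ab1 and H2-Eb1 together, at most 1 UMI of Cd209a, and at most 2 UMIs of Cd79a, Cd3e and Siglech together. The values of these 9 genes in the members were therefore set by the choice and are given only as a description.

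cDC1 are the dendritic cells that take up material from dying cells and present it on MHC class I to CD8 T cells, a process called cross-presentation, and their development depends on the transcription factors IRF8 and BATF3. XCR1 is the receptor for the chemokine XCL1, which natural killer and T cells release, and CLEC9A binds actin filaments exposed on dead cells. The other conventional lineage, cDC2, is known for MHC class II presentation to CD4 T cells, for SIRPA and, in mouse tissues, for Cd209a.

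Non-parenchymal cells were collected from 1 normal liver and 1 fibrotic liver, each from a male C57BL/6 mouse of 8 weeks. The fibrosis mouse was injected intraperitoneally with 15% carbon tetrachloride (CCl4, a hepatotoxin) in olive oil, and the normal mouse with olive oil alone, at 0.6 µl per g, 2 times per week for 6 weeks, and cells were taken 48 h after the last injection. Each library is a single animal, so a difference between the libraries could not be tested, and condition, animal and library cannot be told apart. Counting intervals below are exact, at 95%, and cover counting error only.

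The members were deep cells, with a median of 11609.5 UMIs in normal and 10112 in fibrosis, against 4226 and 5775.5 over all kept cells. The libraries shared 15 cell barcodes, of which 1 belonged to a normal cDC1 and 0 to a fibrosis cDC1. RNA of other cells was present in all gates and differed between the libraries: the summed level of 8 hepatocyte genes was 85.5 UMIs per 10000 in normal and 12.1 in fibrosis cDC1 and 179 and 20.6 in B-gate cells, whereas that of 12 macrophage genes was 4.37 and 23.3 in cDC1 and 6.97 and 45.5 in B-gate cells. The B cell and T cell genes Cd79b, Cd3d and Cd3g stood between 0.014 and 0.0798 UMIs per 10000 in cDC1 of both libraries.

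The label was checked against markers that the rule did not use. Of the 4 genes Flt3, Naaa, Wdfy4 and Ifi205, at least 3 were detected in 127 of 134 normal members (94.8%) and in 58 of 61 fibrosis members (95.1%). The same held for 41.9% and 50.0% of Cd209a dendritic cells, whose median depth was 7325.5 and 7851.5 UMIs, for 1.22% and 1.01% of B-gate cells and for 0.901% and 1.82% of T-gate cells, at medians between 2370 and 4226 UMIs. None of the 4 was detected in 4 normal members and 1 fibrosis member, and Irf8 was undetected in 1 member of each library. The markers thus separated the members from lymphoid cells and less sharply from Cd209a dendritic cells, which also carry Flt3, the receptor of the dendritic cell growth factor FLT3L, and Wdfy4, a gene required for cross-presentation.

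Both receptors were detected in 110 normal and 51 fibrosis members, Xcr1 without Clec9a in 10 and 4, and Clec9a without Xcr1 in 14 and 6. The Clec9a-only fibrosis members had an Irf8 level of 11.3 UMIs per 10000 and a Naaa level of 1.85, against 27.9 and 18.1 in those with both receptors, whereas the Xcr1-only members had 36.3 and 19.5. Of the 6 Clec9a-only fibrosis cells, 1 that also held many Col3a1 UMIs had 35.8% of their UMIs, an Irf8 level of 2.90 and 0 Naaa UMIs; without it their levels were 16 for Irf8 and 2.88 for Naaa. In normal, the Clec9a-only members had 21.6 for Irf8 and 4.83 for Naaa, and the Xcr1-only members 36.9 and 17.0. Members with Clec9a alone therefore had the lower level of Naaa, a lysosomal lipid hydrolase that is a cDC1 marker, in each library.

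At the limit of the receptor rule, the 16 normal and 8 fibrosis members with a receptor sum of exactly 2 had Irf8 at 22.4 and 20.9 UMIs per 10000, and the 43 and 36 otherwise eligible cells with a sum of 1 had 6.77 and 4.19. Naaa was 6.92 and 7.40 just inside the limit and 1.76 and 0.586 just outside it. In all, 209 normal and 161 fibrosis kept cells reached the receptor sum. Of these, 25 and 53 were left out for MHC class II alone, with Irf8 at 2.29 and 3.17. A further 18 and 19 were left out by the lineage genes alone, 14 in each library through Siglech, a gene of plasmacytoid dendritic cells (pDC), and those 14 had Irf8 at 38.3 and 30.9 and Naaa at 2.62 and 1.22. Cd209a alone removed 5 and 1 cells.

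cDC1 were 1.79% of kept cells in the normal library (1.5 to 2.12%) and 0.995% in the fibrosis library (0.762 to 1.28%). With a mitochondrial limit of 5% they were 3.13% and 1.23%, and without members holding over 3 UMIs of other cell types' genes 0.776% and 0.0163% (58 cells and 1 cell). Cd209a dendritic cells, defined by at least 2 Cd209a UMIs, a receptor sum of at most 1 and the same MHC class II and lineage limits, were 1.15% (0.922 to 1.42%) and 1.44% (1.15 to 1.77%). The cDC1 share was lower in the fibrosis library with intervals that did not overlap, whereas those of Cd209a dendritic cells overlapped. Of both dendritic cell groups together, cDC1 made up 60.9% in normal (134 of 220 cells, 54.1 to 67.4%) and 40.9% in fibrosis (61 of 149 cells, 33.0 to 49.3%).

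**Figure D1:**
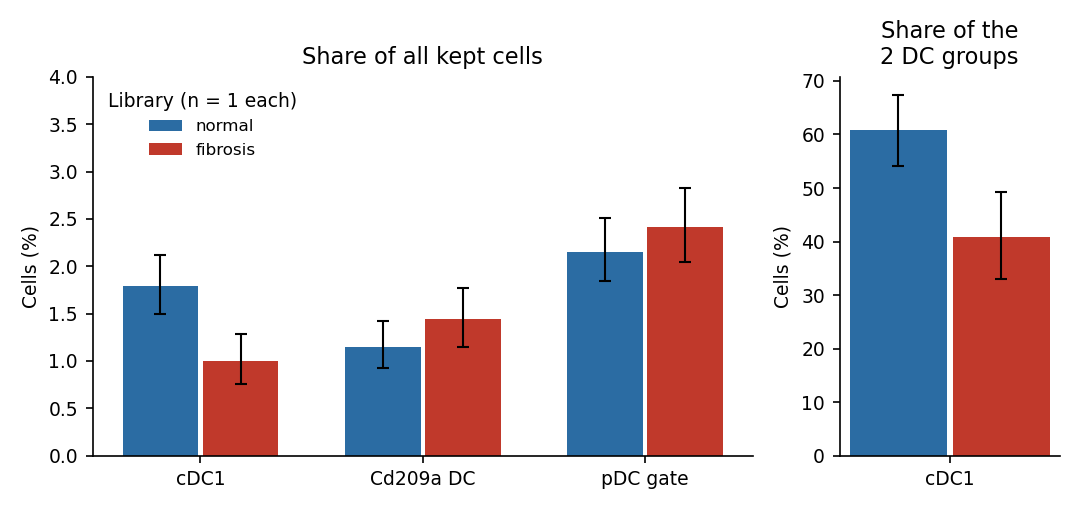
Share of kept cells (left, percent) that were cDC1, Cd209a dendritic cells (DC) or pDC-gate cells, and share of cDC1 among cDC1 and Cd209a dendritic cells (right, percent), in the normal and fibrosis libraries. Bars are the share in 1 library and lines its exact 95% binomial interval; cDC1 were 1.79% and 0.995% of kept cells and 60.9% and 40.9% of the dendritic cell groups.

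The makeup of the libraries also differed elsewhere. Macrophage-gate cells were 7.04% and 19.9% of kept cells, B-gate cells 8.81% and 6.49% and T-gate cells 8.91% and 3.59%. Outside the B and T gates, cDC1 were 2.18% (1.83 to 2.58%) in normal and 1.11% (0.847 to 1.42%) in fibrosis. The part of these other populations in the cDC1 share was not tested.

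Irf8, the lineage-determining factor, stood at 26.8 UMIs per 10000 in normal cDC1 and 26.2 in fibrosis cDC1, and at 0.763 and 1.23 in Cd209a dendritic cells. Over single cells the median was 26.9 in normal, with quartiles of 21.2 and 34, and 29.7 in fibrosis, with quartiles of 19.9 and 36.3. Naaa was 16.2 in each library, against 2.10 and 1.22 in Cd209a dendritic cells. Irf8 and Naaa each had a fibrosis-to-normal ratio whose interval held 1 (0.976, 0.924 to 1.03 and 0.999, 0.931 to 1.07).

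**Figure D2:**
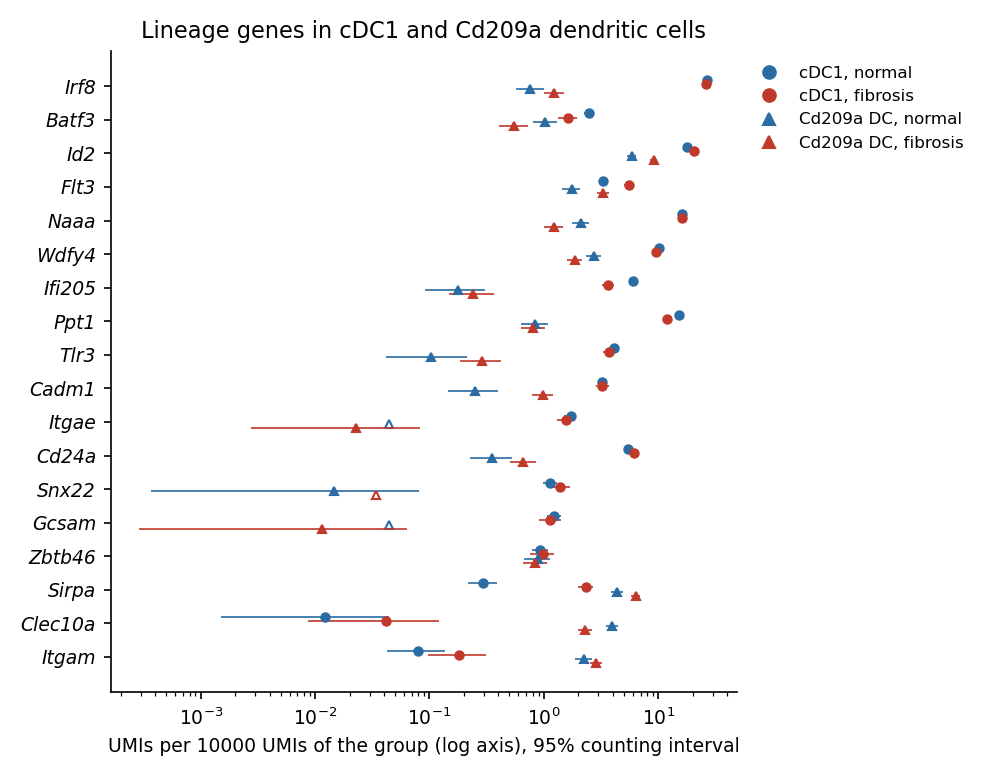
Levels of 18 lineage genes in UMIs per 10000 (log axis) in cDC1 (circles) and Cd209a dendritic cells (triangles) of the normal and fibrosis libraries, with exact 95% counting intervals; open symbols mark 0 UMIs and are drawn at the limit that a count of 0 allows. For most genes the circles of both libraries lie close together, as for Irf8 at 26.8 and 26.2, whereas Sirpa stands at 0.295 and 2.33; Clec10a and Itgam are higher in Cd209a dendritic cells and Zbtb46 is alike in both groups.

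A gene was compared where 1 of the levels set side by side was at least 1 UMI per 10000, and it was called at a ratio of 2 or more. Of the 28 genes of the cDC1 identity list, 24 were compared between the libraries: 0 were called higher and 0 lower in fibrosis, with a median log2 ratio of -0.02, against 0.16 over all 2139 genes compared, of which 137 were called higher (6.4%) and 98 lower (4.58%). The summed level of the list was 138 UMIs per 10000 in each library. The list was drawn up with results of these data known, and 24 genes are few for such shares. Its 0 calls are therefore not independent evidence. Smaller differences were present within it. Flt3 was 3.29 in normal and 5.53 in fibrosis (ratio 1.68, 1.47 to 1.91), and in Cd209a dendritic cells it was 1.75 and 3.29 (1.88, 1.52 to 2.35). Ifi205, an interferon-inducible gene of the AIM2-like family, was 6.01 and 3.67 (0.611, 0.531 to 0.7), and Batf3 was 2.48 and 1.62 (0.652, 0.525 to 0.803), while Batf3 in Cd209a dendritic cells was 1.03 and 0.548. Cd36, a scavenger receptor, was 2.53 and 4.58 (1.81, 1.56 to 2.10), and in B-gate cells 0.952 and 5.64. The ratios of these 4 genes lay outside counting error and under the 2-fold limit.

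Ratios nearer to 1 were found for other members of the list. Wdfy4 was 10.1 and 9.58, Tlr3, the endosomal sensor of double-stranded RNA, 4.10 and 3.71, and Cadm1, an adhesion molecule of cDC1, 3.22 and 3.25. Id2, an inhibitor of E-protein factors that cDC1 need, was 17.9 and 20.5, Btla, an inhibitory receptor, 2.15 and 2.08, and Itgae, which encodes the integrin CD103, 1.71 and 1.56. Of the rule genes, Xcr1 was 7.07 and 5.71 and Clec9a 3.76 and 3.34.

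Against Cd209a dendritic cells of the same library, 90 of 1826 compared genes were called higher in cDC1 in both libraries (4.93%), 83 were called lower in both (4.55%), and 0 were called in opposite directions. The calls of Xcr1, Clec9a and Cd209a among them were fixed by the gates. Of the identity list, 17 of 22 compared genes were called higher and 0 lower, with a median log2 ratio of 3.39 in normal and 3.46 in fibrosis, against -0.05 and 0.0065 over all genes. This list was drawn up with results of these data known, so its count is not independent evidence. Its 5 genes that were not called were Flt3, Cd36, Dpp4, Itgax and Bcl11a. Zbtb46, a factor of the whole conventional lineage, was under the level limit, at 0.933 and 0.977 in cDC1 and 0.880 and 0.844 in Cd209a dendritic cells.

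The genes with the most one-sided levels included surface, signalling and lysosomal genes. Snx22, a sorting nexin, was 1.14 in normal and 1.38 in fibrosis cDC1, with 1 and 0 UMIs in all Cd209a dendritic cells of those libraries. Gcsam, a lymphoid signalling adaptor, was 1.23 and 1.13, with 0 and 1 UMIs, and Itgae had 0 and 2 UMIs there. A count of 0 allows up to 0.0440 UMIs per 10000 in normal and 0.0342 in fibrosis. These genes were thus at or near the detection limit in Cd209a dendritic cells while they were measured in cDC1 of each library. Itgae was also measured in T-gate cells, at 0.206 and 0.152.

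Rab7b, a small GTPase of lysosomal transport, was 63.8-fold higher in cDC1 than in Cd209a dendritic cells in normal (27.2 to 197) and 23-fold in fibrosis (15 to 37.1). Irf8 was 35.1-fold (26.7 to 47.1) and 21.2-fold (17.5 to 26.0) higher, P2ry14, a receptor for UDP-sugars, 59.4-fold (16.3 to 493) and 21.1-fold (10.8 to 46.9), and Ifi205 34.2-fold (19.5 to 66.3) and 15.3-fold (9.82 to 25.2). The lysosomal thioesterase gene Ppt1 was 18.1-fold (13.9 to 23.9) and 14.7-fold (11.5 to 19.0) higher, Tlr3 40.0-fold (19.3 to 99.8) and 13-fold (8.63 to 20.5), and Cd24a 15.3-fold (10.2 to 24.0) and 9.28-fold (7.05 to 12.4). Mycl, a MYC family factor of dendritic cells, was 11.5-fold (6.50 to 22.5) and 16.9-fold (8.91 to 36) higher. The unnamed locus AC163354.1 was 30.4-fold and 27.6-fold higher, and Sept3, a septin, was 9.58-fold higher in normal and had 0 UMIs in fibrosis Cd209a dendritic cells. Some of these genes were also measured in other cells: Irf8 was 39 and 22.2 in pDC-gate cells against 26.8 and 26.2 in cDC1, P2ry14 was 2.93 and 1.63 against 1.74 and 2.16, and AC163354.1 was 2.09 and 3.20 in NK-gate cells against 1.79 and 2.21.

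**Figure D3:**
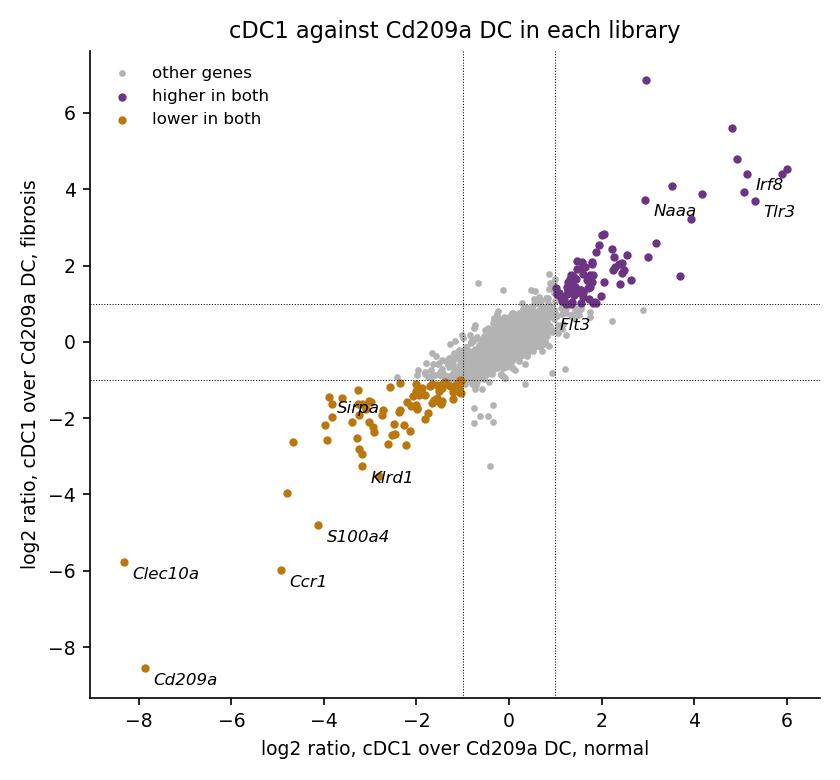
Log2 ratio of the level in cDC1 to that in Cd209a dendritic cells (DC) in the normal library (x axis) and the fibrosis library (y axis), 1 point per gene with UMIs in both groups of both libraries; dotted lines mark the 2-fold limit. The 85 genes drawn of the 90 called higher and the 82 of the 83 called lower in both libraries are coloured, Irf8 lies at 35.1-fold and 21.2-fold and Cd209a, a gene of the rule, at the lower left.

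Of the cDC2 list, 9 of 13 compared genes were called lower in cDC1 and 0 higher, against 4.55% lower over all genes. That list too was drawn up with results of these data known, and Cd209a chose the cells compared. Its count is therefore not independent evidence. Clec10a, a C-type lectin, was 0.0123 and 0.0419 in cDC1 and 3.95 and 2.29 in Cd209a dendritic cells. Ccr1, a chemokine receptor, was 0.0429 and 0.0279 against 1.31 and 1.78, and Itgam, which encodes CD11b, 0.0798 and 0.181 against 2.23 and 2.85. Each of these genes was more than 2-fold apart in both libraries. S100a4, a calcium-binding protein, was 0.884 and 0.181 against 15.4 and 5.05. The lectin-like receptor gene Klrd1 was at 0.111 and 0.105 of its level in Cd209a dendritic cells, and Emb, Tnip3, Ms4a4c and Ccl9 stood at ratios from 0.0396, for the chemokine Ccl9 in normal, to 0.162, for Ccl9 in fibrosis.

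Sirpa, the cDC2 receptor for CD47, was 0.295 in normal cDC1 and 2.33 in fibrosis cDC1, against 4.39 and 6.34 in Cd209a dendritic cells. Of 8 compared genes of the cDC2 list, 4 were called higher in fibrosis cDC1, Sirpa, Csf1r, Tmem176a and Tmem176b, and 0 lower, with a median log2 ratio of 1.07; over all genes 6.4% were called higher, and 3 cells held 69.4% and 72.4% of the fibrosis UMIs of Tmem176a and Tmem176b. Sirpa was 0.644 and 4.81 in B-gate cells and 5.72 and 11.7 in macrophage-gate cells, so the higher level in fibrosis cDC1 went with a higher level in lymphoid cells of that library. The part of other cells' RNA in it was not tested.

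Of 19 compared genes of the MHC class I and cross-presentation list, Psmb9, a subunit of the immunoproteasome, and Rab43, a GTPase of cross-presentation in cDC1, were called higher than in Cd209a dendritic cells and Cybb lower, counts near the shares over all genes (4.93% and 4.55%). Psmb9 was 6.99 and 3.96 in cDC1 and 2.14 and 1.48 in Cd209a dendritic cells (3.26-fold and 2.67-fold), and Rab43 was 1.12 and 1.40 against 0.469 and 0.513 (2.39-fold and 2.72-fold). The proteasome activator Psme1, at 1.99-fold and 2.10-fold, and the peptide transporter Tap1, at 1.97-fold and 1.74-fold, did not reach 2-fold in both libraries. Cybb, the catalytic subunit of the phagocyte NADPH oxidase, was 0.491 and 2.01 against 7.67 and 9.16.

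Of the 11 compared genes of the MHC class II list that the rule did not use, 0 were called higher and 2 lower (4.93% and 4.55% over all genes), H2-DMb2 and the lysosomal protease Ctss (0.340 and 0.457 of the level in Cd209a dendritic cells). Cd74, the invariant chain, was 152 and 116 in cDC1 and 204 and 130 in Cd209a dendritic cells. H2-Aa, H2-Ab1 and H2-Eb1 chose both groups and are not counted here.

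Among sensors and receptors, Tlr11 and Tlr12, which recognise profilin of protozoa, were 1.17 and 0.907, and 0.890 and 0.810, in cDC1. In Cd209a dendritic cells Tlr11 was 0.147 and 0.0342, and Tlr12 had 0 UMIs in normal and a level of 0.0114 in fibrosis. Of 5 compared genes of the sensor and uptake list without the rule gene Clec9a, 2 were called higher in cDC1, Tlr3 and Havcr2, and 1 lower, the apoptotic cell receptor Axl. Of 14 compared chemokine and growth factor receptor genes without the rule gene Xcr1, 1 was called higher, Kit, and 4 lower, among them Cx3cr1, Csf1r and Ccr1. Over all genes 4.93% were called higher and 4.55% lower. Havcr2, which encodes the checkpoint receptor TIM-3, was 2.13-fold and 2.41-fold higher in cDC1, Btla 3.96-fold and 2.31-fold, and the stem cell factor receptor Kit 2.94-fold and 2.59-fold. Cxcr3, the receptor of CXCL9 and CXCL10, was 0.650 and 0.628 in cDC1 against 0.0587 and 0.0456. Tlr11, Tlr12, Havcr2, Btla, Kit and Cxcr3 had ratios above 1 in each library with intervals that excluded 1.

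Between the libraries, genes called in cDC1 often had ratios of the same direction in lymphoid cells. Of the 137 called higher in fibrosis, 105 had a log2 ratio of at least 1 in B-gate cells (76.6%, against 14.7% of all 2139 compared genes), 76 in T-gate cells (55.5% against 9.4%) and 69 in both (50.4% against 7.06%). Of the 98 called lower, 66 had a log2 ratio of -1 or less in B-gate cells (67.3% against 5.14%), 66 in T-gate cells (67.3% against 4.02%) and 57 in both (58.2% against 3.27%). All 9 compared macrophage genes and all 5 compared mesenchymal genes were called higher, and all 8 hepatocyte genes lower. List counts between the libraries are read against the 6.4% of all genes called higher and 4.58% called lower. The 2 of 10 compared MHC class II pathway genes outside the rule that were called higher, the lysosomal proteases Lgmn (0.963 and 5.36) and Ctsl (1.48 and 3.31), were 1.82 and 11.8 and 2.44 and 7.24 in B-gate cells. Of the lipid handling list 4 of 8 were called higher (6.4% over all genes), among them lipoprotein lipase, Lpl, at 0.104 and 2.46 in cDC1 and 0.274 and 5.40 in B-gate cells. In 37 of the genes called higher and 3 of those called lower, 3 cells held over 50% of the UMIs of the library with the higher level.

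**Figure D4:**
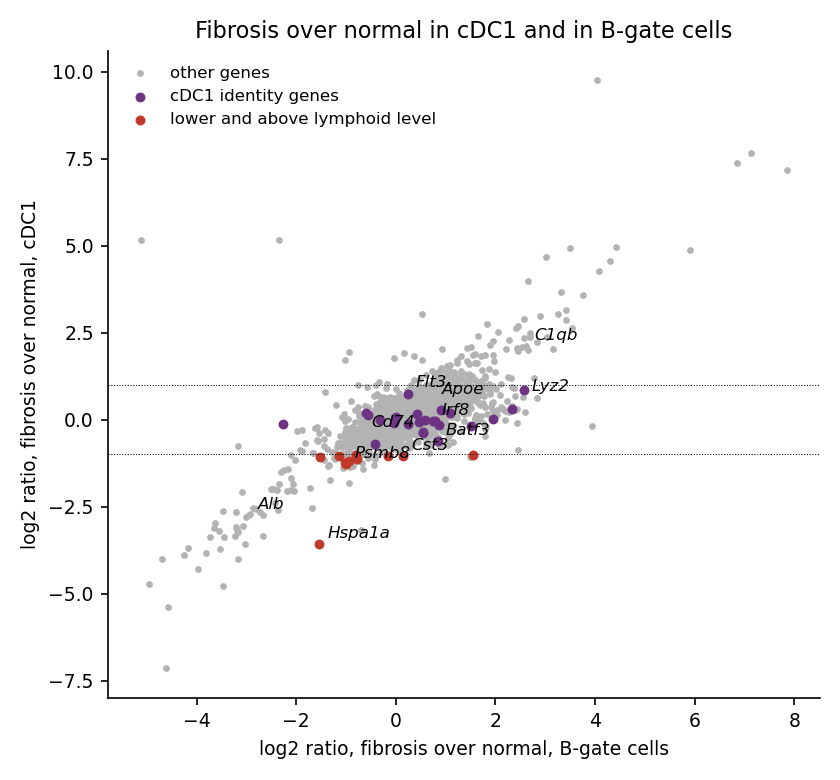
Log2 ratio of fibrosis to normal in cDC1 (y axis) and in B-gate cells (x axis), 1 point per gene compared in cDC1 and found in both libraries; dotted lines mark the 2-fold limit. The compared cDC1 identity genes lie within the lines, Alb and C1qb follow the B-gate values, and the 11 genes lower in fibrosis and above lymphoid level, such as Cst3 with a ratio of 0.487, lie under the lower line.

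Single cells carried some of these genes. The fibrosis member with the most Slpi UMIs held 34610 UMIs and had Slpi at 48.8 UMIs per 10000, Msln, a mesothelial gene, at 4.91 and Irf8 at 14.4, while the other 60 had Slpi at 0.0733. Another, of 31019 UMIs, had the collagen gene Col3a1 at 40.3, Xcr1 and Naaa at 0 and Irf8 at 2.90, while the other 60 had Col3a1 at 0.846. These 2 cells met the rule while carrying RNA of other lineages, and doublets were not removed. Without the deepest 10% of members, 14 in normal and 6 in fibrosis, 95 genes were called higher and 97 lower in fibrosis.

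Few of the called genes stood in cDC1 at 2 times or more the level in both B-gate and T-gate cells of the library where they were higher, a limit that was set after the values were seen. It was met by 3 genes called higher in fibrosis, Slpi, Igfbp6 and Rarres2, of each of which 3 cells held 92.4% to 98.7% of the UMIs, and by 13 called lower. Without genes of which 3 cells held over 50% of the UMIs in the library with the higher level, 0 were left among the higher and 11 among the lower. The 11 were Hspa1a, Psmb8, Txn1, Dctpp1, Ppp1r11, Hist1h1b, Ccdc12, Cst3, Ube2c, Cycs and Aif1. In fibrosis, where its level was lower, 3 cells held 61.9% of the Ube2c UMIs.

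Cst3, the cysteine protease inhibitor cystatin C and one of the most abundant transcripts of these cells, was 184 UMIs per 10000 in normal and 89.8 in fibrosis cDC1 (ratio 0.487, 0.474 to 0.5). It was 37.5 and 23.3 in Cd209a dendritic cells, 5.81 and 6.38 in B-gate cells, 7.69 and 7.22 in T-gate cells and 15.5 and 13.6 in macrophage-gate cells. The difference in cDC1 was thus not accompanied by one of that size in lymphoid or macrophage-gate cells. Aif1, a calcium-binding actin-bundling protein, was 5.44 and 2.71 in cDC1 (0.498, 0.424 to 0.582), in B-gate cells it was 0.359 and 1.05, and in macrophage-gate cells 9.09 and 4.14.

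Of 19 compared genes of the MHC class I and cross-presentation list, 2 were called higher in fibrosis cDC1, the chaperone gene Canx (3.69 and 7.54) and Cybb (0.491 and 2.01), and 1 lower, Psmb8, counts near the 6.4% and 4.58% over all genes. Canx was 3.75 and 7.25 and Cybb 2.56 and 4.87 in B-gate cells. Psmb8, an inducible immunoproteasome subunit, was 8.85 and 3.64 (0.412, 0.360 to 0.470), and Psmb9 followed at 0.567 (0.496 to 0.647), Psme2 at 0.613 and Psme1 at 0.728. Psmb8 was also lower outside cDC1, with a ratio of 0.404 in Cd209a dendritic cells and levels of 2.35 and 1.18 in B-gate and 4.40 and 2.15 in T-gate cells. The class I heavy chain gene H2-K1 was 15.4 and 20.1 and B2m, its light chain, 21.7 and 33.3, and Tap1 was 3.68 and 3.29. H2-K1 shares sequence with other class I genes, and its count is uncertain to that extent.

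The heat shock gene Hspa1a was 13.9 in normal and 1.17 in fibrosis cDC1, and its near-identical copy Hspa1b 11.0 and 1.88. Hspa1a was 11.0 and 2.51 in Cd209a dendritic cells, 6.03 and 0.561 in T-gate cells and 6.94 and 1.22 in macrophage-gate cells, so it was lower in each. Dnajb1, a co-chaperone, was 1.68 and 0.475. The phosphatase gene Dusp1 was 6.48 and 14.3, and in Cd209a dendritic cells 10.1 and 15.1. Of the 19 compared genes of the immediate early and heat shock list, Dusp1 was called higher and these 3 heat shock genes lower in fibrosis (6.4% and 4.58% over all genes), and Dusp1 was also higher in B-gate cells, at 4.01 and 12.1.

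The UMIs of the chemokine genes Cxcl9 and Ccl22 and of the maturation list gene Apol7c lay largely in few members. Cxcl9, an interferon-induced chemokine that attracts CXCR3-bearing T cells, was 4.73 in normal and 0.530 in fibrosis cDC1, but 3 of the 32 normal cells with a UMI held 50.1% of its UMIs, and it was 0.932 and 0.572 in B-gate cells. In the 8 normal members with at least 20 Cxcl9 UMIs, a group formed after the values were seen, Apol7c was 20.5 against 0.171 in the other 126, Ccl22 8.49 against 0.131 and Cd40 3.36 against 0.190, while Irf8 was 27.5 against 26.8. Apol7c, an apolipoprotein L gene, had 0 UMIs in fibrosis, which allows a level up to 0.0419, and in normal 1.51, with 83.7% of its UMIs in 3 cells. The summed levels of the 8 cells rest on few of them: 4 normal members had at least 5 UMIs of the chemokine Ccl22, at 20.6 against 0.019 in the other 130.

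Cd86, a costimulatory ligand, was 1.71 and 0.991 (0.579, 0.440 to 0.754) and Cd83 1.15 and 0.726 (0.633, 0.456 to 0.864). Cd86 was detected in 73.1% of normal and 55.7% of fibrosis members, and Cd83 in 56.7% and 55.7%. In Cd209a dendritic cells the ratio was 0.793 for Cd86 and 1.17 for Cd83. The cytokine Ccl4 was 2.12 and 1.02 in cDC1 and 0.446 and 1.25 in B-gate cells, and Cxcl2, a neutrophil attractant, 0.160 and 1.41 in cDC1 and 0.246 and 2.64 in B-gate cells. Of 5 compared genes of the maturation list, Apol7c was called lower and 0 were called higher in fibrosis (4.58% and 6.4% over all genes). Of the interferon response list, 0 of 7 compared genes were called in either direction, as were 0 of 5 sensor and uptake genes without the rule gene and 0 of 5 checkpoint genes. With so few genes these counts are near the shares over all genes, and nothing is read from them.

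Migratory dendritic cells, known for the chemokine receptor Ccr7 and the actin-bundling gene Fscn1, were searched for among the members. After each cell was thinned to 1000 UMIs, a Ccr7 or Fscn1 UMI was found in 2 of 134 normal cDC1 (1.49%, 0.181 to 5.29%) and in 0 of 61 fibrosis cDC1, which allows up to 4.92% at 3 counts and 5.87% by the exact interval. Over 20 draws the share ranged from 0 to 3.73% in normal, with a median of 1.87%, and from 0 to 4.92% in fibrosis, with a median of 3.28%. Without thinning the share was 15.7% and 24.6%. The bounds given for 0 of 61 hold for that 1 draw at 1000 UMIs per cell. Thinned in the same way, Cd209a dendritic cells had 1.16% and 3.41%. T-gate cells, some of which express Ccr7, had 8.56% and 14.1%, and B-gate cells 32.4% and 39%. Among all kept cells within the MHC class II and lineage limits, 6 normal and 9 fibrosis cells had at least 1 Ccr7 and 2 Fscn1 UMIs, with Xcr1 at 0 in each library. As membership asks for Xcr1 or Clec9a UMIs, migratory cDC1 without these transcripts could not be counted as members.

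Cell cycle genes were frequent in cDC1 of both libraries. At 1000 UMIs per cell, at least 2 UMIs of Mki67, Top2a, Cdk1, Birc5, Ube2c, Tpx2, Cenpf and Nusap1, genes of DNA replication and mitosis, were found in 27 of 134 normal cDC1 (20.1%, 13.7 to 27.9%) and 12 of 61 fibrosis cDC1 (19.7%, 10.6 to 31.8%). The share was 4.65% (1.28 to 11.5%) and 10.2% (4.78 to 18.5%) in Cd209a dendritic cells, 3.95% and 3.02% in B-gate cells and 4.80% and 6.36% in T-gate cells. In the normal library the interval of cDC1 lay above those of the other 3 groups, and in fibrosis it overlapped with that of Cd209a dendritic cells. Over 20 draws the cDC1 share ranged from 16.4% to 21.6% in normal and from 14.8% to 21.3% in fibrosis, and that of Cd209a dendritic cells from 3.49% to 8.14% and from 9.09% to 14.8%. Without thinning the cDC1 shares were 43.3% and 44.3%, and with a mitochondrial limit of 5% the thinned shares were 32.8% and 33.3%.

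**Figure D5:**
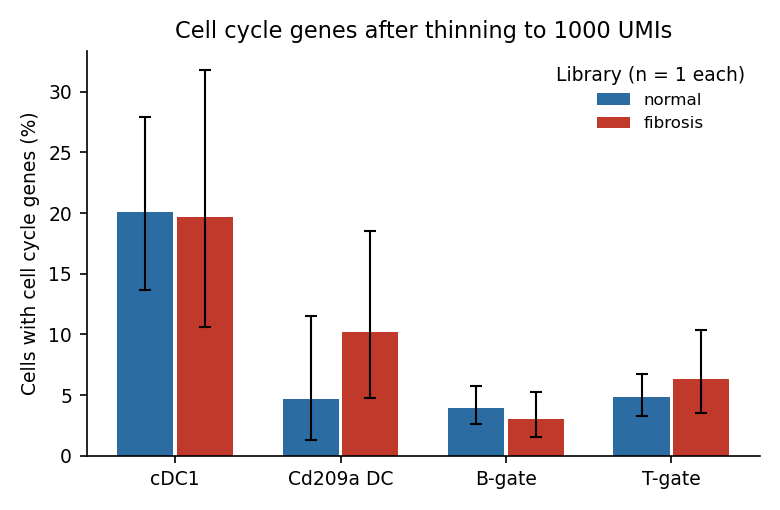
Percentage of cells with at least 2 UMIs of 8 cell cycle genes after each cell was thinned to 1000 UMIs, in cDC1, Cd209a dendritic cells (DC), B-gate and T-gate cells of the normal and fibrosis libraries. Bars are the share in 1 library and lines its exact 95% binomial interval; cDC1 stand at 20.1% and 19.7% and the lymphoid gates under 7%.

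Of the 24 genes of the wider cell cycle list, 15 were compared between libraries and 1, the mitotic ubiquitin-conjugating enzyme gene Ube2c, was called lower in fibrosis (2.40 and 1.17, ratio 0.489), where 3 cells held 61.9% of its fibrosis UMIs; over all genes 4.58% were called lower. Mki67, the proliferation marker, was 3.49 and 2.97 and the topoisomerase gene Top2a 4.23 and 3.64. Stmn1, a microtubule regulator, was 4.26 and 2.54 (0.597, 0.504 to 0.703). Its log2 ratio was -0.745, and -0.139 without the deepest 10% of members. In Cd209a dendritic cells the ratio was 2.05 for Ube2c and 1.23 for Stmn1, and whether the ratios of both dendritic cell groups differ cannot be tested with 1 library per condition.

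In the normal library, the 58 cDC1 with at least 2 cell cycle UMIs differed from the 52 with 0 in several lineage genes. Itgae was 1.22 in the former and 2.48 in the latter (ratio 0.491, 0.376 to 0.640), and Cd8a, a marker of lymphoid-organ cDC1, 0.148 and 0.527 (0.281, 0.133 to 0.563). Cadm1 (0.656), Ppt1 (0.685), Tlr3 (0.709) and Naaa (0.714) had lower levels too, whereas Irf8 had a ratio of 1.02 (0.954 to 1.09) and Ifi205 of 1.46 (1.26 to 1.70). Pcna and Mcm5, replication genes outside the set that split the cells, had ratios of 2.79 (1.98 to 4) and 4.70 (2.69 to 8.88). Cells with cell cycle genes were deeper, at a median of 15415 against 10574.5 UMIs. In fibrosis, with 27 and 17 cells, the ratio was 0.829 (0.498 to 1.41) for Itgae, 0.958 (0.830 to 1.11) for Naaa, 1.10 (0.767 to 1.60) for Cadm1 and 1.66 (0.331 to 16) for Cd8a. It was 0.942 (0.701 to 1.28) for Ifi205, 0.913 (0.675 to 1.25) for Tlr3, 0.915 (0.773 to 1.09) for Ppt1 and 1.14 (1.01 to 1.29) for Irf8. All of these intervals except that of Irf8 held 1, and among those that held 1 only that of Tlr3 also held the ratio of the normal library. Other lineage genes differed from this. Xcr1, a rule gene, had ratios of 0.743 (0.654 to 0.844) in normal and 0.726 (0.571 to 0.927) in fibrosis. Cd74 had 0.873 and 0.9 (0.853 to 0.949), and Id2 1.19 (1.09 to 1.29) and 0.824 (0.729 to 0.932). For Batf3, Cd24a, Ccr2 and H2-Ab1 the fibrosis interval held both 1 and the normal ratio. In fibrosis, however, Pcna had a ratio of 1.03 (0.636 to 1.71) and Mcm5 of 2 (1.06 to 4.10), so no difference in Pcna was detectable across the split there. The difference between the libraries was not tested.

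By the rule for named genes, which asked for a log2 ratio at least 1 away from those of both B-gate and T-gate cells, the genes with the highest ratio in fibrosis cDC1 were Rgs1, Grn, Cd36, Ctss, Psap, Lyz2, Tgfbi, Cd34, Ms4a6c, Cdk14, AC163354.1 and Cd68. Rgs1, a regulator of G-protein signalling, was 2.67 and 6.14 (2.30, 2.01 to 2.63), with a log2 ratio of 1.20 in cDC1 and 2.77 in B-gate cells, and a level of 6.07 in T-gate cells of each library. Psap, a lysosomal sphingolipid activator, was 55.4 and 88.1 (1.59, 1.54 to 1.64), with log2 ratios of 0.67 in cDC1, 2.40 in B-gate and 1.89 in T-gate cells. For 10 of the 12 genes, all except Rgs1 and AC163354.1, the log2 ratio was smaller in cDC1 than in B-gate and T-gate cells, so the difference was larger in lymphoid cells than in cDC1.

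Among the 12 with the lowest ratio, Car3, Uox and Vtn are hepatocyte genes that were also lower in B-gate and T-gate cells. The other 9 were Aif1, Anxa1, Cd86, Stmn1, Pkib, Cks2, Cd83, Tnni2 and Batf3, with log2 ratios from -1.01 to -0.62 in cDC1 and above 0 in both lymphoid gates. Anxa1, the anti-inflammatory protein annexin A1, was 2.04 and 1.12 (0.547, 0.423 to 0.7), and Pkib, an inhibitor of protein kinase A, 2.23 and 1.34 (0.6, 0.474 to 0.753). The rule asked for a distance from the lymphoid gates, so this difference in sign follows from the choice, and some lymphoid levels rest on few UMIs, as for Tnni2 with 9 and 8 in B-gate cells.

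The ligands of the cDC1 receptors were measured in other cells of the same libraries. Xcl1, the ligand of XCR1, was 5.28 UMIs per 10000 in NK-gate cells of the normal library (4.68 to 5.95) and 2.10 in those of the fibrosis library (1.77 to 2.47), and 2.49 (2.33 to 2.66) and 0.601 (0.472 to 0.753) in T-gate cells. In cDC1 it was 0.0245 and 0.0140. Flt3l, which drives dendritic cell development through FLT3, was 0.575 and 0.593 in T-gate cells and 0.387 and 0.718 in NK-gate cells. Xcl1 was thus lower in both lymphoid gates of the fibrosis library, and Flt3l in T-gate cells had overlapping intervals.

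The selecting and marker genes lie on several chromosomes of GRCm38 (GENCODE vM21), each as a protein-coding gene. Xcr1 is at chr9:123852315-123862029 on the minus strand, Clec9a at chr6:129408862-129424763 on the plus strand and Cd209a at chr8:3743397-3748984 on the minus strand. Irf8 is at chr8:120736358-120756694 (plus), Batf3 at chr1:191097847-191108945 (plus), Naaa at chr5:92257659-92278170 (minus) and Wdfy4 at chr14:32959547-33185508 (minus). The counts are of the 3′ ends of transcripts and do not resolve exons.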

How the data were processed

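Liver non-parenchymal cells of 1 mouse per condition were sequenced as 10x 3′ libraries. The authors deposited 1 table of UMI counts per library, not normalized, made with Cell Ranger 3.0.1 (submitters' processing notes) on mm10; 8130 cells were listed for normal and 6437 for fibrosis. Cells were kept below 10% mitochondrial UMIs and above 200 genes. Doublets were not removed. UMIs were summed over the cells of a group and divided by the group's total, as UMIs per 10000. With 1 library per condition no test was made; ratios of 2 at a level of at least 1 were called, leaving out mitochondrial, ribosomal protein and haemoglobin genes. Intervals are exact binomial or Poisson at 95%, and a count of 0 allows 3 counts.

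The B gate took at least 4 UMIs of Cd79a, Cd79b and Ms4a1 without CD3 genes, the T gate at least 3 of Cd3d, Cd3e and Cd3g without Cd79a, the NK gate at least 2 of Ncr1 and Klrb1c without CD3 genes, the pDC gate at least 3 of Siglech, and the macrophage gate at least 30 UMIs per 10000 of C1qa, C1qb and C1qc; both of the last asked for at most 2 UMIs of Cd79a and Cd3e and a receptor sum of at most 1. Members, gene lists and rules were chosen with earlier results of these data known; 2 of 353 list genes were not found in the tables. Named were the 12 highest and 12 lowest genes between libraries that stood at least 1 on the log2 scale apart from B-gate and T-gate cells, and the 15 highest and 10 lowest between the dendritic cell groups, no more than 50% of a gene's UMIs lying in 3 cells. On simulated counts for the fibrosis-to-normal comparison, 191 of 200 genes changed 4-fold were called; the other 9 fell under the level limit, and 1 of 1570 unchanged genes was called. The simulation held counting error only. Thinning drew UMIs at random within each cell; the draw was made separate for each cell after first values were seen, and 20 further draws give its spread. Python 3.11.15, numpy 2.4.6, scipy 1.17.1 and pandas 2.3.3 were used.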

Additional observations from a re-analysis of the deposited data

Results flagged for a closer look

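Cks2, a mitotic kinase subunit, had a fibrosis-to-normal ratio of 0.609 in cDC1 and 2.33 in Cd209a dendritic cells, and Tmem176b, an ion channel gene of cDC2, 3.38 and 0.736. In each case the groups moved in opposite directions with counting intervals that excluded 1; the difference was not tested. In fibrosis cDC1, 3 cells held 72.4% of the Tmem176b UMIs.

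In cells outside the comparisons, Clec9a was detected in pDC-gate cells, at 0.417 UMIs per 10000 in normal and 0.284 in fibrosis, above the upper counting bounds of B-gate and T-gate cells in each library. In NK-gate cells it was 0.252 (0.134 to 0.43) and 0.172 (0.0891 to 0.301), with intervals that overlapped those of pDC-gate cells. The pDC gate holds cells with a receptor sum of at most 1.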

How the results depend on the processing

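No paired analysis was possible because each condition has 1 library. Of the ratios of named genes under the alternatives, 364 moved by under 0.5 on the log2 scale, 20 moved more and 1 reversed: with a mitochondrial limit of 5%, AC163354.1 had a fibrosis-to-normal log2 ratio of -0.0315. Under that limit cDC1 were 3.13% of normal and 1.23% of fibrosis kept cells, 68.2% and 32.8% of the dendritic cell groups in normal and fibrosis, cell cycle genes were found in 32.8% and 33.3% of them, and 209 genes were called higher in fibrosis. cDC1 were 1.47% of normal kept cells when both receptors were required. When the rule was applied at 2000 UMIs per cell, they were 1.32% of the normal kept cells that had at least 2000 UMIs. Leaving out members with over 3 UMIs of other cells' genes left 58 normal and 1 fibrosis cell, at 0.776% and 0.0163% of kept cells and 40.3% and 1.12% of the dendritic cell groups, and levels were not computed there. At a fold of 1.5, 426 genes were called higher and 223 lower in fibrosis, and 164 higher and 190 lower against Cd209a dendritic cells. At a level of 0.5, the fibrosis counts were 342 and 174, and 152 were lower against Cd209a dendritic cells. With only 10 summed UMIs asked for, the counts were 1244 and 825, and 270 and 376. After the data were seen, 5 alternatives were added. Leaving out genes held by 3 cells left 100 higher and 95 lower in fibrosis. Asking for levels above lymphoid cells left 3 and 13, and 0 and 11 with both limits. Leaving out 5 normal and 3 fibrosis members above the 95th percentile of T-gate cells for other cells' genes moved no share or count outside its limit. Without 1 cell, the Irf8 level of fibrosis members with Clec9a alone was 16 in place of 11.3, and that of Naaa 2.88 in place of 1.85.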
